A study of Mus musculus with 6 samples.

Results

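Acetylated histone H3 (H3ac) was examined over 9 genes of the smooth muscle and contractile programme, Acta2, Tagln, Cnn1, Myl9, Tpm1, Tpm2, Srf, Vcl and Actn1, in bone mesenchymal stem cells (MSCs) from young and old mice. H3ac was mapped by CUT&RUN, in which an antibody guides a nuclease to marked chromatin and the DNA that is cut free is sequenced. Members were all rows of the H3ac table whose interval overlapped the body of one of these genes, extended by 5 kb on both sides (GENCODE M21, mm10). This gave 11 regions of 24431, and each of the 9 genes had at least 1. Srf and Actn1 had 2 regions and the other genes 1. No region was added by the extension, since the gene bodies alone (0 kb) gave the same number, and an extension of 10 kb gave 15.

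The 6 libraries formed 3 groups of 2. Young libraries were from MSCs of mice aged 3 to 5 months and Old libraries from MSCs of mice aged 18 to 22 months, both untreated. OldAcetate libraries were from MSCs of mice aged 18 to 22 months given 5 mM sodium acetate for 3 days. All cultures were kept at 2% oxygen, so oxygen was shared by all groups, and the mouse strain, sex and number of animals per culture are not given in the labels. The labels do not say that replicates came from separate animals, so the spread between them may be technical and the p-values refer to that spread alone.

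Smooth muscle and activated stromal cells build a contractile apparatus from actin filaments, tropomyosins that wind along them, calponins and transgelin that bind and stiffen them, and a myosin motor whose regulatory light chain switches it on. Vinculin and alpha-actinin anchor and cross-link the filaments at adhesions. Many of these genes are driven by serum response factor (SRF), which binds the CArG box, a run of A and T bases between CC and GG, and which works with coactivators, MRTF-A and MRTF-B, which sense the pool of free actin, and myocardin. Bone marrow stromal cells are known to carry part of this programme in culture. Histone H3 acetylation is a mark of active promoters and enhancers.

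Because SRF acts through the CArG box, the stretches before the start sites of the members were searched for it. RefSeq promoter windows (GRCm38.p6, 250 bases before to 50 after the start) matched 8 of the 9 members, and Tagln was not matched. A complete CArG box stood in 3 of these 8 windows, those of Srf, Vcl and Myl9, against 1.63% of 32851 windows of all genes and 1.39% of 14937 windows whose start lay in an H3ac region. In a wider list of contractile genes, described below, it stood in 5 of 37 windows (13.5%), those of Actg1, Cnn2, Fhl2 and Myl6. These 37 windows came from 28 genes, some with more than 1 window, whereas each matched member had 1. Both lists were picked from the programme that SRF drives, so an excess over all genes follows from the choice and tests nothing about H3ac. The box reads the same way on both strands, so both were covered. The sequences before the start sites of these 3 genes, ended where either RefSeq or GENCODE places the start, are shown with the complete boxes in capitals.

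Srf, chr17:46556176-46556412, minus strand: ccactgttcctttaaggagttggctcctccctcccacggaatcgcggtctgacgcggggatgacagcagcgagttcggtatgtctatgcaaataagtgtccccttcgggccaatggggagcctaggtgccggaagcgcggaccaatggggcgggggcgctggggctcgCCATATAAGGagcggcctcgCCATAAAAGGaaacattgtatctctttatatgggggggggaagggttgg
Vcl, chr14:20929148-20929397, plus strand: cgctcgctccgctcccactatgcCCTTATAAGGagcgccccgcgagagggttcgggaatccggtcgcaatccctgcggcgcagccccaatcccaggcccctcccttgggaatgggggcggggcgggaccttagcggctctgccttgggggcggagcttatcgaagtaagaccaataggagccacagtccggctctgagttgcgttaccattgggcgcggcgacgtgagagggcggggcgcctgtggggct
Myl9, chr2:156775214-156775419, plus strand: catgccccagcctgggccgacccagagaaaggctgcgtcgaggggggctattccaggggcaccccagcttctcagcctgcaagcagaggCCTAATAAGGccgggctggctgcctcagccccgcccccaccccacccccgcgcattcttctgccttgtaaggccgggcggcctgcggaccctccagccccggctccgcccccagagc

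The Srf window held 2 complete boxes, at positions -82 and -62 (first base of the box, counted from the RefSeq start), and a further one at -39 with 1 base off. The box of Vcl lay at -227 and that of Myl9 at -161, with a further one 1 base off at -99. Boxes with 1 base off were also found in the windows of Tpm1, at -221 and -80, and of Acta2, at -84 and -34. Such boxes are common, since 21.1% of all windows and 16.5% of those in an H3ac region held one of either kind. This compares with 5 of the 8 member windows and 35.1% of the windows of the wider list. The Acta2 sites and the Tpm1 site at -80 lay downstream of the outermost GENCODE start, inside the gene. The 2 sites of Acta2 are given with 10 bases on each side, since Acta2 encodes the smooth muscle actin after which the programme is usually named, and capitals mark the site.

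Acta2 at -84, chr19:34255438-34255467, minus strand: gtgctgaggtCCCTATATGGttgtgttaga
Acta2 at -34, chr19:34255388-34255417, minus strand: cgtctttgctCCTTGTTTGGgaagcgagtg

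No CArG box of either kind was found in the windows of Cnn1, Tpm2 and Actn1, which says only that it is not in these bases. CATTCC, the site of TEAD factors, was found on either strand in 3 of the 8 windows (Tpm1, Vcl and Acta2). It was found in 14.7% of all windows and 12.7% of those in an H3ac region. GGGCGG, the site of Sp1, was found on either strand in 6 of 8 windows, all but those of Acta2 and Cnn1, against 35.7% of all windows and 59.9% of those in an H3ac region. TATAAA was found on either strand only in the Srf window, where its letters overlapped the box that is 1 base off. It was found in 13.6% of all windows and 7.22% of those in an H3ac region. These motif counts were not tested.

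The members also differed in CpG content. The observed to expected CpG ratio was 0.270 in the Acta2 window and 0.239 in the Cnn1 window, below the median of 0.737 for windows in an H3ac region and placed at percentiles 12.7 and 10.7 of these. In Tpm2, Myl9 and Actn1 it was 0.546, 0.583 and 0.690. Srf, Tpm1 and Vcl lay above the median, with ratios of 0.837, 0.823 and 0.902. Both CpG-poor windows thus belonged to markers of smooth muscle, and both lay in an H3ac region.

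All 9 gene starts lay inside an H3ac region, and all 11 regions carried the code AC+O+Y in their name, read here as OldAcetate, Old and Young, a reading the labels do not define. This code was carried by 80.6% of all regions and by 91.9% of the 9750 regions that held a protein-coding start site. The way H3ac was laid over the genes differed between members. The Acta2 region (chromosome 19, 34239501 to 34258000) covered the whole gene of 14.5 kb and all 9 exons of its longest coding transcript. The regions over Tagln (chromosome 9, 45928501 to 45940000), which encodes the actin-binding protein transgelin, and Tpm2 (chromosome 4, 43506001 to 43526000), which encodes beta-tropomyosin, likewise covered 100% of the gene.

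Over Srf, 93.6% of the gene was covered, in 2 regions on chromosome 17. The first, from 46549501 to 46558000, held the start site and 6 of 7 exons. The second, from 46544501 to 46549000, held the last exon and continued over the start site of the neighbouring gene Cul9, so its reads could not be assigned to Srf alone. Myl9, the regulatory light chain of smooth muscle myosin, was covered over 65.4% of its length (chromosome 2, 156773501 to 156779500).

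Tpm1, which encodes alpha-tropomyosin, is read from alternative starts. Its region (chromosome 9, 67036501 to 67050500) covered 48.1% of the gene and all 16 starts of annotated coding transcripts, of which 10 lay within 1 kb of the gene start and 6 lay from 5444 to 5697 bp downstream. Both promoters therefore fell in 1 region and their reads could not be separated.

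The region of Cnn1, calponin 1, lay mostly before the gene (chromosome 9, 22083501 to 22102000). It reached 15715 bp upstream, over the start site of Ecsit, and only 2784 bp into Cnn1, or 26.7% of the gene. The Tpm2 region also held the start site of Car9, and the Acta2 and Tagln regions overlapped Stambpl1 and Pcsk7 with Sidt2, respectively, without their start sites. For Cnn1 and Tpm2 the values below are those of the shared region.

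The 2 adhesion genes were long and only partly marked. Of Vcl, which encodes vinculin and spans 104 kb, 5.37% was covered, by a region around the start (chromosome 14, 20924001 to 20935000) with 1 of 21 exons. The start of 1 of its 2 coding transcripts lay outside it. Actn1, encoding the cross-linker alpha-actinin 1, spans 92.8 kb and was covered over 54.3%. Its first region (chromosome 12, 80243501 to 80262000) held the start site and 1 of 21 exons. Its second (chromosome 12, 80205501 to 80239000) began 21371 bp from the start site and also held 1 of 21 exons, so it was almost wholly intronic.

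**Figure D1:**
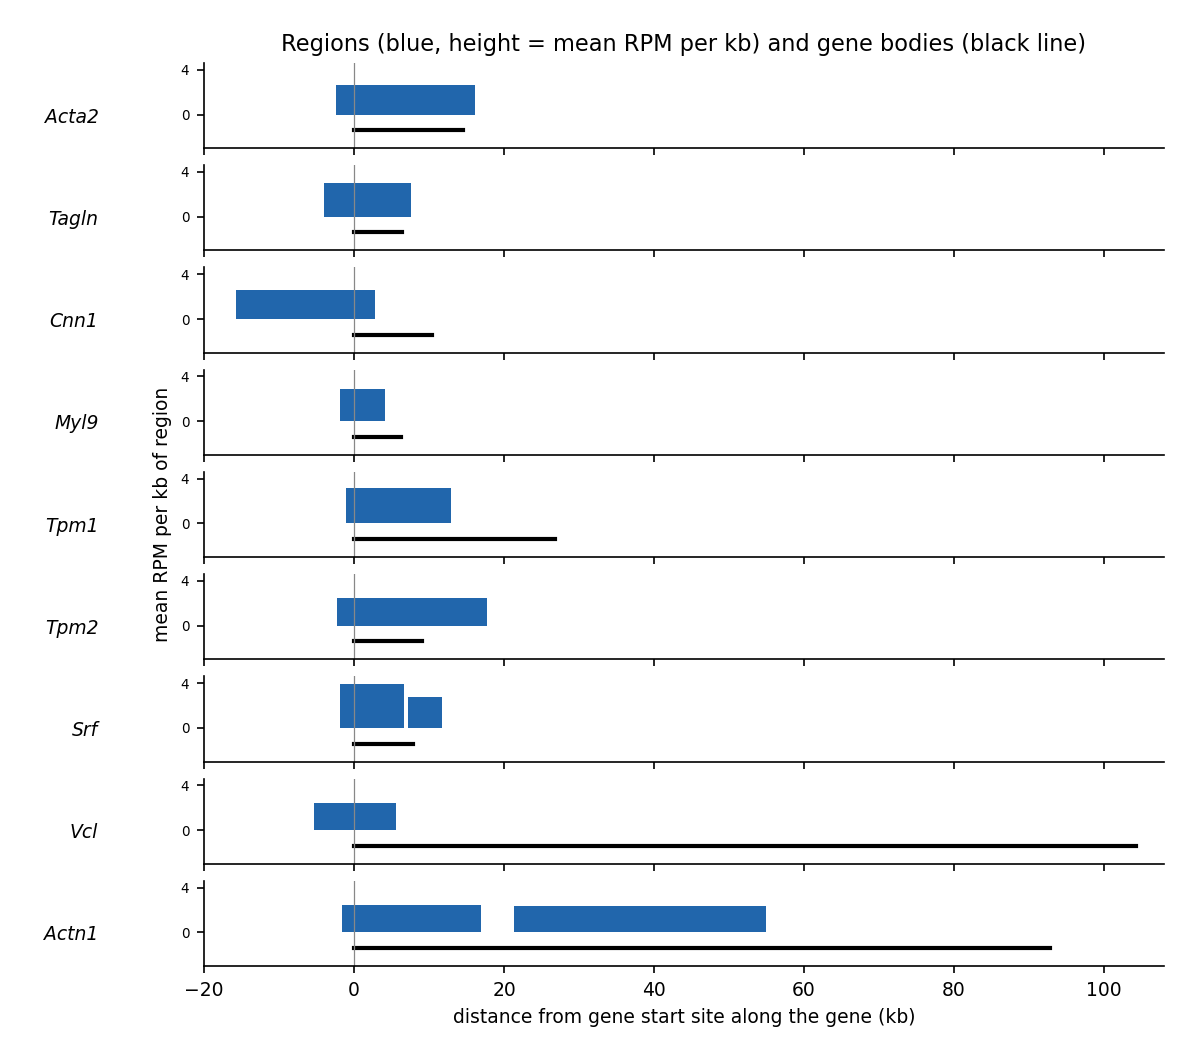
Position of the H3ac regions of the 9 genes, 1 row per gene. The x axis is the distance from the gene start in the direction of transcription (kb), black lines are gene bodies, and blue boxes are regions whose height is the mean of 6 libraries in RPM per kb. Acta2, Tagln and Tpm2 are covered from end to end, whereas the Vcl region ends 5602 bp after the start and the Cnn1 region lies mostly upstream.

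The member regions were long for start-site regions. Their median length was 14 kb, against 5.5 kb over all regions and 5.5 kb over the start-site regions, and those of Acta2, Cnn1 and Actn1, each 18.5 kb, stood at percentile 90.0 of start-site regions. The gene-body region of Actn1 was the longest member, at 33.5 kb. Reads are counted over a whole region, so levels are given in RPM (reads scaled to an equal library total), and in RPM per kb of region when genes are compared. The median RPM was 43.8 over members and 15.7 over all regions. Per kb the order turned, with 2.60 RPM per kb over members, 2.70 over all regions and 3.07 over start-site regions.

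Srf had the highest density of the members. Its start-site region held a mean of 3.93 RPM per kb, at percentile 85.5 of start-site regions, and ranged from 2.99 to 4.63 over the 6 libraries. Next came Tpm1 (3.13), Tagln (2.99) and Myl9 (2.89 RPM per kb). Cnn1, Acta2, Tpm2, Actn1 and Vcl lay between 2.60 and 2.45 RPM per kb at their start-site regions, and the gene-body regions of Srf and Actn1 held 2.73 and 2.33 RPM per kb. Each region overlapped its neighbour in this order in the range over libraries. Compared within each of the 6 libraries, the Srf start-site region had the highest density of the members every time. The order of the other neighbours changed between libraries and was not resolved. Per kb, the start-site regions of the contractile proteins thus lay near or below the median of start-site regions, and that of the transcription factor gene above it. In RPM the regions of the contractile proteins stood at percentiles from 45.9 (Myl9) to 89.1 (Tpm2) of start-site regions. The density is an average over a whole region, most of them long and some shared with other genes. It does not give the level at the start site itself.

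**Figure D2:**
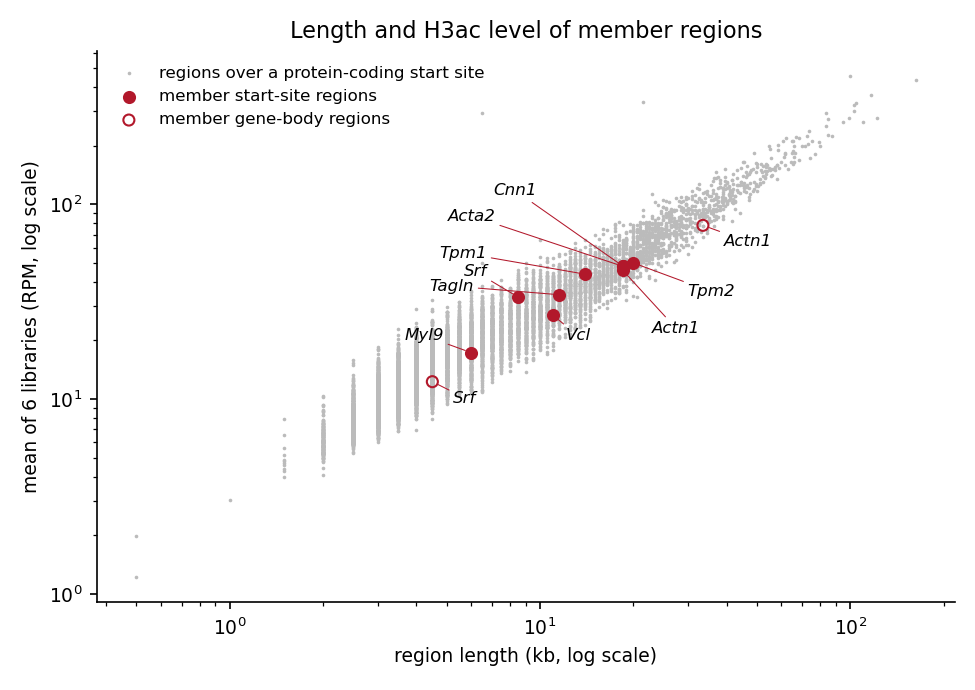
Length and H3ac level of the regions. The x axis is region length (kb) and the y axis is the mean of 6 libraries (RPM), both on log scales. Grey points are regions over a protein-coding start site and red points are member regions, filled over a start site and open in a gene body. Members follow the relation of length and level of the other regions, and Vcl, at 11 kb and 27.0 RPM, lies towards its lower edge.

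The cell type of the labels was checked on start sites of marker genes. All 10 stromal markers, among them Pdgfra, Ly6a and Thy1, had a start-site region. None of 6 endothelial and none of 7 skeletal muscle markers did, and in this table, which lists called regions only, that means no called region over the annotated start. Elsewhere in or within 5 kb of the gene there were 4 regions for Pecam1 and 1 each for Kdr and Tie1, all endothelial, and 1 for Tnnt3 of skeletal muscle. Of 8 blood and macrophage markers, Cd68 and Spi1 had one and Ptprc did not. Of 7 pericyte and smooth muscle markers, Myh11, Myocd, Cspg4, Mcam, Lmod1 and Notch3 had one and Rgs5 did not. These 6 regions summed to between 211 and 221 RPM for the Young pair, 141 and 167 RPM for the Old pair and 162 and 210 RPM for the OldAcetate pair. In the same order of groups the 10 stromal regions summed to 559 to 658, 453 to 490 and 578 to 597 RPM. The blood marker regions summed to 51.5 to 56.3, 44.8 to 45.3 and 47.0 to 55.5 RPM. Young was above Old in each list, as it was in most regions of the table, and in bulk cultures fewer cells of a type and less signal per cell cannot be told apart. The part of these cell types in the member values was not tested.

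Library totals ran from 2163351 to 3039481 reads, and the share of reads in regions was lower in Old (45.9% and 49.9%) than in the other 4 libraries (56.3% to 64.8%). Member regions held between 20 reads (Srf gene-body region, Old replicate 2) and 276 reads (Actn1 gene-body region, Young replicate 1), for which counting error alone is 22.4% and 6.02% of the value. Together they held 872 to 1519 reads per library. Both scales below are given by name. RPM values are as deposited and include the shift shared by all regions, while the fold changes tested with limma are on the log2(RPM + 0.5) scale after each library was centred on the median region. In the deposited values the median log2 fold change of all regions came to -0.35 for Old vs Young, 0.24 for OldAcetate vs Old and -0.11 for the remaining pair of groups.

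The first comparison, Old vs Young, asked whether H3ac differed with age. In deposited RPM, 10 of the 11 member regions had a lower mean in Old, and 7 had both Old libraries below both Young libraries. These 7 were the start-site regions of Acta2, Tagln, Cnn1, Myl9, Tpm1, Tpm2 and Srf. No member was higher without overlap (1.29% of all regions were). Of all regions, 60.2% were lower without overlap, and 92.1% had a negative fold change, so the members moved as most of the table did. After scaling, limma called 0 of the 11 member regions at an adjusted p of 0.05, against 0.00819% of all regions. One member, Vcl, had an unadjusted p under 0.05 (5.54% of all regions did), and edgeR with RLE factors on the recovered reads also called 0 (0.0205% of all regions), with 0 under 0.05 unadjusted (5.19%). The median scaled log2 fold change was 0.01 over members and -0.00 over all regions.

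Acta2, the smooth muscle actin, held 55.9 and 51.9 RPM in Young and 46.7 and 41.4 RPM in Old replicates 1 and 2, and 44.0 and 48.4 RPM in OldAcetate. The Old and Young libraries did not overlap (60.2% of all regions were lower in Old without overlap), and OldAcetate lay with Old. The scaled log2 fold change in Old vs Young was 0.06 (95% interval -0.22 to 0.33, limma adjusted p = 0.981), and it was -0.29 in the deposited values, where the adjusted p was also above 0.05.

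Of the proteins that bind the actin filament, Tagln held 39.5 and 33.9 RPM in Young, 28.7 and 29.0 RPM in Old, and 34.3 and 40.9 RPM in OldAcetate. Cnn1 held 51.7 and 53.9 RPM in Young, 43.5 and 38.6 RPM in Old, and 46.4 and 55.1 RPM in OldAcetate. In both, the Old libraries were the 2 lowest of the 6. Of all regions, 60.2% were lower in Old than in Young without overlap and 47.1% were higher in OldAcetate than in Old. Their scaled log2 fold changes in Old vs Young were 0.01 (SE 0.16) for Tagln and -0.01 (SE 0.14) for Cnn1.

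The tropomyosins behaved alike in Old. Tpm1 held 46.4 and 47.0 RPM in Young, 38.4 and 34.6 RPM in Old, and 48.4 and 48.0 RPM in OldAcetate. Tpm2 held 60.2 and 47.8 RPM in Young, 42.5 and 43.0 RPM in Old, and 49.1 and 57.6 RPM in OldAcetate. Old was the lowest group for both, without overlap, and the Young libraries of Tpm2 lay far apart. Of all regions, 60.2% were lower in Old than in Young without overlap and 47.1% were higher in OldAcetate than in Old. The scaled log2 fold changes in Old vs Young were -0.00 (SE 0.14) for Tpm1 and 0.03 (SE 0.14) for Tpm2.

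Myl9, the light chain through which smooth muscle myosin is switched on, was the lowest start-site region in RPM. It held 18.8 and 20.4 RPM in Young, 16.2 and 14.3 RPM in Old, and 18.5 and 15.8 RPM in OldAcetate, from 35 to 57 reads per library. Young did not overlap with Old or OldAcetate, and 60.2% and 29.8% of all regions were lower than Young without overlap in these groups. Its scaled log2 fold change in Old vs Young was -0.00, with an interval from -0.44 to 0.43, so a change smaller than these bounds was not detectable at this depth.

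Srf, the transcription factor whose site is shown in the sequences above, held 38.2 and 30.2 RPM in Young, 25.4 and 28.2 RPM in Old, and 39.3 and 39.2 RPM in OldAcetate at its start-site region. The Old libraries were the 2 lowest and the OldAcetate libraries the 2 highest. Without overlap, 60.2% of all regions were lower in Old than in Young and 7.60% were higher in OldAcetate than in Young. The region shared with Cul9 held 16.8 and 11.03 RPM in Young, 12.5 and 7.95 RPM in Old, and 10.1 and 15.4 RPM in OldAcetate, and its 3 groups overlapped. The scaled log2 fold changes in Old vs Young were 0.01 (SE 0.16) at the start site and -0.08 (SE 0.27) at the second region.

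The last members are the adhesion genes. Vcl held 29.6 and 22.5 RPM in Young, 26.8 and 25.9 RPM in Old, and 30.9 and 26.3 RPM in OldAcetate, so that both Old libraries lay between the Young ones while most regions of the table were lower in Old. Its scaled log2 fold change in Old vs Young was 0.38 (95% interval 0.02 to 0.74), with a limma unadjusted p of 0.0404 and an adjusted p of 0.894, and it was not called. Without Young replicate 2 it was 0.27 and without Young replicate 1 it was 0.49. In the deposited values it was 0.03.

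Actn1 held 52.0 and 41.7 RPM in Young, 42.5 and 39.8 RPM in Old, and 51.4 and 47.1 RPM in OldAcetate at its start-site region. In its intronic region it held 90.8 and 70.7 RPM in Young, 80.0 and 66.8 RPM in Old, and 75.9 and 83.8 RPM in OldAcetate. Young and Old overlapped in both. The scaled log2 fold changes in Old vs Young were 0.17 (SE 0.14, limma adjusted p = 0.928) and 0.22 (SE 0.11, limma adjusted p = 0.894). On the scaled values the 2 Old libraries lay above the 2 Young libraries in 4 regions, those of Vcl, both of Actn1 and that of Acta2, and in none below, against 16.9% and 17.1% of all regions.

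**Figure D3:**
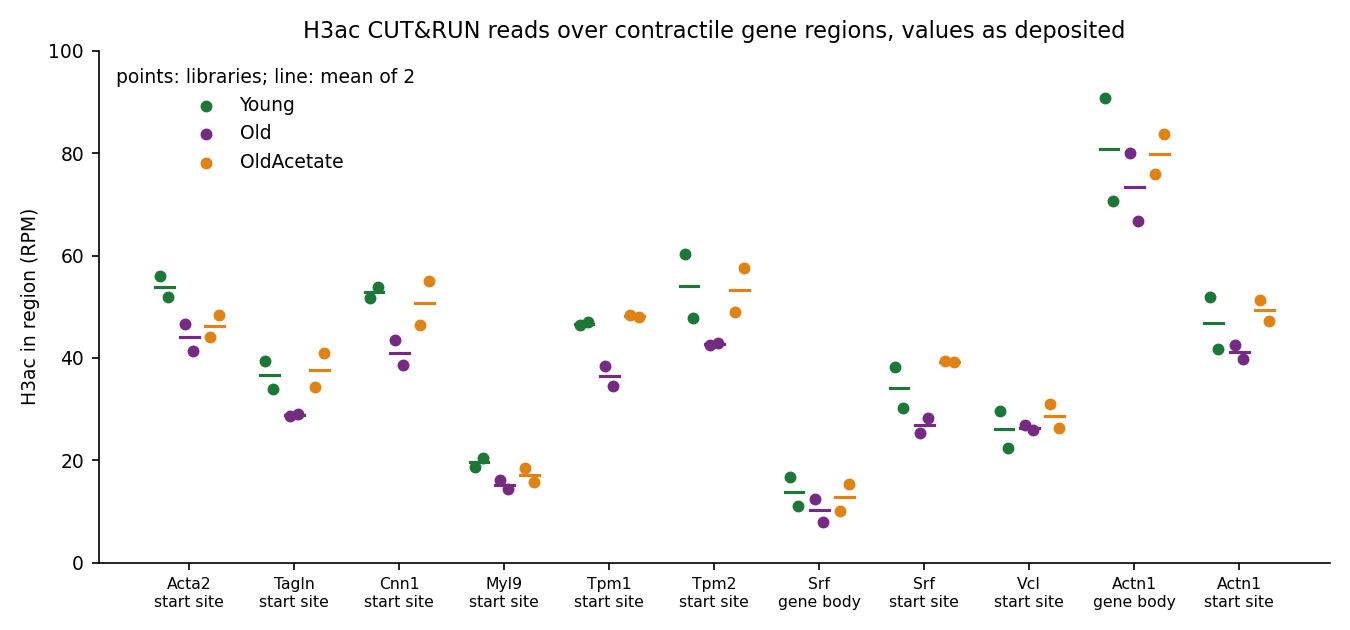
H3ac level of the 11 member regions in each library. The y axis is RPM as deposited, points are libraries (2 per group) and lines are group means. The Old points are the lowest for Tagln, Cnn1, Tpm1, Tpm2 and the Srf start site, whereas for Vcl they lie between the Young points at 25.9 and 26.8 RPM. Of all regions, 60.2% were lower in Old than in Young without overlap.

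The second comparison, OldAcetate vs Old, asked whether acetate, a source of the acetyl groups put on histones, changed H3ac in old cells. In deposited RPM the mean of OldAcetate was higher in all 11 member regions, and 6 did not overlap with Old, namely the start-site regions of Tagln, Cnn1, Tpm1, Tpm2, Srf and Actn1. None was lower without overlap (3.46% of all regions were). Of all regions, 47.1% were higher without overlap and 83.2% had a positive fold change. After scaling, limma called 0 of 11 members, against 0% of all regions, and 0 had an unadjusted p under 0.05 (6.24% of all regions did). The edgeR test called 0, with 0 unadjusted (5.34% of all regions). The median scaled log2 fold change was 0.06 over members and 0.00 over all regions. This comparison uses the same Old libraries as the first.

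Srf stood highest among the members. At its start-site region the scaled log2 fold change was 0.30 (95% interval -0.03 to 0.63), with a limma unadjusted p of 0.0705 and an adjusted p of 0.824, and it ranged from 0.17 (without Old replicate 1) to 0.44 (without Old replicate 2). In the deposited values it was 0.54, with means of 39.3 ± 0.0766 RPM (OldAcetate) and 26.8 ± 1.99 RPM (Old; SD, n = 2 each), with a limma adjusted p of 0.124. Tpm1 followed at 0.16 (SE 0.14) and Tagln at 0.13 (SE 0.16), then Tpm2, Cnn1 and the second Srf region, at 0.07, 0.06 and 0.07. The start-site region of Actn1 was at 0.02.

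Lower scaled values were found for 4 regions. Acta2 had a scaled log2 fold change of -0.17 (95% interval -0.44 to 0.11, limma adjusted p = 0.903), although its mean was 46.2 ± 3.09 RPM in OldAcetate and 44.0 ± 3.77 RPM in Old, which is a log2 fold change of 0.07 in the deposited values. The same turn of sign with scaling was seen for Vcl (-0.13 scaled and 0.11 deposited), the intronic region of Actn1 (-0.11 and 0.13) and Myl9 (-0.07 and 0.16). None of these passed the test on either scale. On the scaled values Tpm1 and the start-site region of Srf were higher without overlap, as were 16.7% of all regions, and Acta2 was lower without overlap, as were 17.2%.

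The third comparison, OldAcetate vs Young, asked whether treated old cells still differed from young ones. In deposited RPM, Acta2 and Myl9 were lower in both OldAcetate libraries than in both Young libraries, as were 29.8% of all regions, and Tpm1 and Srf were higher without overlap, as were 7.60%. For Tpm1 this separation was small, between 46.4 and 47.0 RPM in Young and 48.0 and 48.4 RPM in OldAcetate. After scaling, limma called 0 of 11 members, against 0% of all regions, with 0 at an unadjusted p under 0.05 (5.08% of all regions), and edgeR called 0, with 0 unadjusted (6.76%). The median scaled log2 fold change was 0.11 over members and 0.00 over all regions. The start-site region of Srf was highest, at 0.32 (95% interval -0.01 to 0.65, limma adjusted p = 0.964), then Vcl at 0.25 (SE 0.18). Acta2 was lowest, at -0.11 (SE 0.14). Scaled values were higher without overlap for Tpm1, Vcl and the start-site regions of Srf and Actn1 (17.7% of all regions) and lower without overlap for Acta2 (18.1%). This comparison shares its libraries with the other 2.

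**Figure D4:**
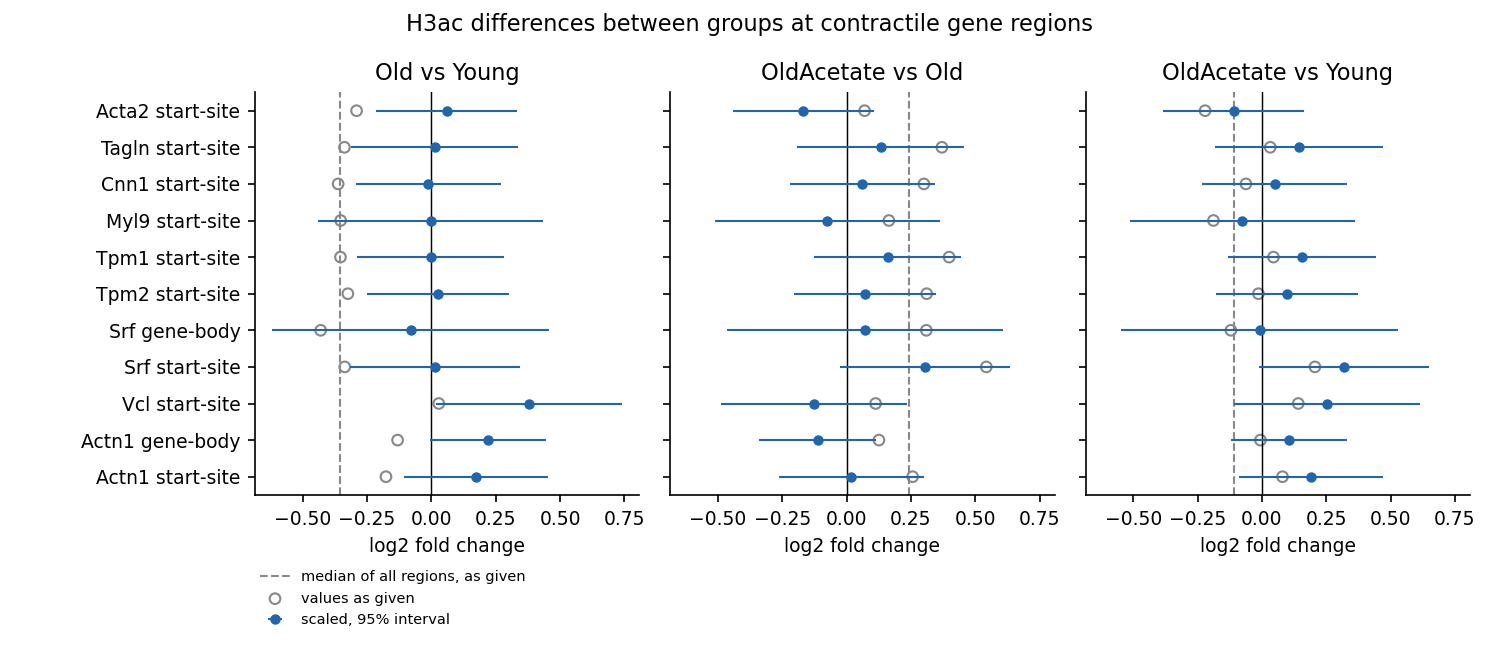
Fold changes of the 11 member regions in the 3 comparisons. The x axis is the log2 fold change, blue points with bars are scaled values with 95% intervals, open circles are the deposited values and the dashed line is the median of all regions in the deposited values. In Old vs Young most open circles lie on the dashed line at -0.35, and the Vcl interval, from 0.02 to 0.74, is the one that does not hold 0.

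Summed over the 11 regions, the members reached 499.8 and 430.9 RPM for Young replicates 1 and 2, then 403.1 and 369.5 RPM for Old and 448.3 and 477.6 RPM for OldAcetate. The group means were 465 ± 48.7, 386 ± 23.8 and 463 ± 20.7 RPM (SD, n = 2 each). Taken as a share of all reads that fell in regions, the same sums came to 0.0771% and 0.0746% for Young, 0.0808% and 0.0805% for Old, and 0.0782% and 0.0848% for OldAcetate. Both Old libraries were thus below the other 4 in summed RPM but above both Young libraries in share, and on the share the OldAcetate libraries lay on both sides of the Old ones. An exact permutation test of 2 against 2 libraries cannot give a p below 0.333, so no test of the sums was run.

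A wider list of 36 genes of the contractile and SRF programme was read from the same fits. A start-site region was present for 30 of them, in 29 regions, since the light chain genes Myl12a and Myl12b shared 1. Des, the muscle intermediate filament gene, had no region within 5 kb. Mylk, Actg2, Tpm3, Fhl2 and Csrp1 had none over the annotated gene start but 1 to 5 regions elsewhere within 5 kb of the gene. Markers of differentiated smooth muscle varied widely in the length and level of their start-site regions. The means were 6.33 RPM over 2500 bp for Myh11, its myosin heavy chain, and 12.0 RPM over 4500 bp for Lmod1, leiomodin, but 44.4 RPM over 13000 bp for Smtn, smoothelin, and 125 RPM over 49500 bp for Cald1, caldesmon. Per kb these were 2.53, 2.66, 3.41 and 2.52 RPM, against 2.60 RPM per kb for Acta2.

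After scaling, limma called 0 of the 29 regions in each of the 3 comparisons, against 0.00819%, 0% and 0% of all regions, and edgeR with RLE factors called 0 in each. At an unadjusted p under 0.05 limma gave 2 for Old vs Young, 1 higher and 1 lower (5.54% of all regions), 4 for OldAcetate vs Old, all higher (6.24%), and 0 for OldAcetate vs Young (5.08%). The corresponding edgeR numbers were 1, 1 and 0 (5.19%, 5.34% and 6.76% of all regions). The median scaled log2 fold change of the list was -0.07, 0.11 and 0.05.

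The regions with the lowest p were not past the threshold. In Old vs Young they were over Myocd, the smooth muscle coactivator of SRF, with a scaled log2 fold change of 0.60 (SE 0.24, limma adjusted p = 0.852), Actn4 at -0.19 and Pxn at -0.17. Myocd held 12.8 and 12.3 RPM in Young, 16.2 and 13.9 RPM in Old, and 15.1 and 13.8 RPM in OldAcetate, so that, unlike most regions, both Old libraries were above both Young libraries. In OldAcetate vs Old they were over Myh9 (0.18), Mrtfa (0.42) and Zyx (0.28), which encode a non-muscle myosin heavy chain, the SRF coactivator MRTF-A and the adhesion protein zyxin. The limma adjusted p of these was 0.777, 0.777 and 0.797. In OldAcetate vs Young they were over Mrtfa (0.37), Cfl1 (0.14) and Lmod1 (-0.39), with limma adjusted p values from 0.964 to 0.974.

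In the deposited values, 11 of the 29 list regions were called lower for Old vs Young by limma and 0 higher, against 9.52% of all regions called. They included those of Tln1 (log2 fold change -0.60), Actg1 (-0.54), Actn4 (-0.54), Cnn2 (-0.52), Pxn (-0.52), Smtn (-0.49), Zyx (-0.46), Myh9 (-0.42), Csrp2 (-0.42) and Tagln2 (-0.35), with limma adjusted p values from 0.00697 to 0.0495. Tln1, Zyx and Pxn encode the adhesion proteins talin, zyxin and paxillin, Actg1 the cytoplasmic gamma-actin, and Actn4, Cnn2 and Tagln2 the non-muscle relatives of Actn1, Cnn1 and Tagln. None of them was called on the scaled values, where the list median was -0.07 against -0.42 as deposited.

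None of the 11 member regions was called in the deposited values. For Old vs Young the lowest limma adjusted p was 0.119 (Cnn1), and Cnn1, Tpm1 and Tpm2 had an unadjusted p under 0.05, as did 32% of all regions. With edgeR without factors 9 list regions were called, all lower, and 0 members (10.3% of all regions), while 3 members were under 0.05 unadjusted (32.9%). For OldAcetate vs Old the deposited values gave 0 calls on the list and 0 among members (0.311% of all regions by limma and 0.086% by edgeR). Under an unadjusted 0.05 were 3 members by limma, Srf, Tpm1 and Tagln (18% of all regions), and 2 by edgeR (16.6%). For OldAcetate vs Young both tools gave 0 calls on the list and among members (0% of all regions) and 0 members under an unadjusted 0.05 (6.1% and 7.96% of all regions).

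The profile of the members over the 6 libraries was nearly flat. The median of the scaled, centred log2 values over the 9 start-site regions ran from -0.08 in Young replicate 2 to 0.11 in OldAcetate replicate 2. Among 5878 other start-site regions of at least the median level, those over Cux1, Baiap2 and Arhgdib were most like it, with root mean square differences of 0.023, 0.0314 and 0.0317 on the log2 scale over the 6 libraries. They were picked as the closest of 5878, so their small differences follow from that choice. The members, which were not picked in this way, differed from their own median profile by 0.0712 (Actn1) to 0.157 (Vcl). The 2 ranges therefore cannot be compared.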

How the data were processed

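The deposited table was described by the authors as RPKM in its name, but in each of the 6 columns 100% of values were whole multiples of 1 step (tolerance 0.01) whatever the region length, so the deposited values are RPM and were not divided by length. Whole reads and library totals were recovered from the steps. The labels name mm10, Bowtie2 and Picard, without versions or roles. The peak caller, filters and any use of the added yeast DNA are not given in the sources used here. Each library has its own column over 1 shared set of regions.

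The 9 genes and all lists were chosen with earlier results of these data known. All members are described, and of the wider list the genes without a start-site region, those called and the 3 with the lowest p per comparison are named, with others as examples chosen after their values were seen. A gene of the wider list is counted but not reported here by name. Region intervals were overlapped with GENCODE M21 genes, and the start site is the outermost annotated one. Differences were tested with limma 3.58.1 (R 4.3.3) over 24431 regions on log2(RPM + 0.5), which understates changes of low regions, with all 6 libraries in 1 fit of group means, eBayes with trend and robust, and Benjamini-Hochberg adjustment over all regions. edgeR 4.0.16 (quasi-likelihood) was run on the recovered reads. Pseudocounts, scalings, filters, the replicate block and the omission of libraries were varied. The pairs differed by more than counting noise (chi-square per degree of freedom 1.10 to 1.18). Intervals from limma are 95%. Scripts were tested on simulated data. Figures were drawn with matplotlib 3.10.9.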

Additional observations from a re-analysis of the deposited data

How the results depend on the processing

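No member region was called in any alternative that kept 2 libraries in each compared group. Of 561 alternative fold changes 502 kept their sign. Many of these could not turn. The filter, the replicate block and eBayes without trend and robust leave the fold change as it is in the main fit. Leaving out a library of the group not compared shifts all regions by the same small amount. The count is therefore not a measure of stability. The cause was not tested where a value changed, except that unscaled values hold the shift of the whole table by construction. Depth (20 to 276 reads per member region) and 2 libraries per group limit what was detectable.

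Without scaling, the log2 fold changes that turned in Old vs Young were -0.29 (Acta2), -0.34 (Tagln), -0.32 (Tpm2), -0.34 and -0.13 (Srf start site and Actn1 gene body) and -0.18 (Actn1 start site), with a member median of -0.34, 2327 regions called and 11 on the wider list. For OldAcetate vs Old they were 0.070 (Acta2), 0.16 (Myl9), 0.11 (Vcl) and 0.13 (Actn1 gene body), the member median was 0.30 and 76 regions were called. For OldAcetate vs Young they were -0.062 (Cnn1), -0.013 (Tpm2) and -0.0057 (Actn1 gene body), the last being the median. edgeR without factors gave -0.30, -0.35, -0.35, -0.36, -0.15 and -0.20 for the same regions in Old vs Young and -0.00047 for Vcl, with a median of -0.35, 2524 regions called and 9 on the list. It gave 0.069, 0.19, 0.13 and 0.12 for OldAcetate vs Old, a median of 0.30 and 21 regions called, and -0.064, -0.036 and -0.028 for OldAcetate vs Young, the last being the median. edgeR with RLE factors gave 0.0037 (Cnn1), 0.0099 (Myl9) and 0.011 (Tpm1) in Old vs Young and 5 regions called, and pseudocount 0.1 gave 0.0018 for Tpm1.

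The 2 regions called over the whole table in Old vs Young were 5 with quantile normalization, 1 with only the 4 compared libraries, 0 with eBayes without trend and robust, and 1 at a threshold of 0.01. In OldAcetate vs Old, 0 became 2 with quantile normalization and 2 with the 4 compared libraries. Leaving out 1 library gave 0 (without Old replicate 1 or Old replicate 2) to 9 (without Young replicate 2) in Old vs Young, 0 to 3 in OldAcetate vs Old and 0 to 4 in OldAcetate vs Young, the highest without Young replicate 2.

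Leaving out 1 library moved the member median from 0.0133 to 0.10, from -0.024 to 0.17 and from 0.019 to 0.18 in the 3 comparisons. In Old vs Young the ranges that crossed 0 were -0.058 to 0.083 (Tagln), -0.12 to 0.10 (Cnn1), -0.14 to 0.14 (Myl9), -0.093 to 0.088 (Tpm1), -0.057 to 0.11 (Tpm2), -0.33 to 0.17 (Srf gene body) and -0.12 to 0.15 (Srf start site). In OldAcetate vs Old they were -0.0066 to 0.27 (Tagln), -0.074 to 0.20 (Cnn1), -0.17 to 0.020 (Myl9), -0.055 to 0.20 (Tpm2), -0.24 to 0.38 (Srf gene body) and -0.031 to 0.067 (Actn1 start site). In OldAcetate vs Young they were -0.085 to 0.18 (Cnn1), -0.22 to 0.066 (Myl9), -0.028 to 0.23 (Tpm2) and -0.32 to 0.30 (Srf gene body). The share of reads in member regions differed by -0.0024 to 0.0042 percentage points in OldAcetate minus Old and by 0.0024 to 0.0090 in OldAcetate minus Young. Taken as the mean log2 level of members minus that of all regions, the differences were 0.079 (Old minus Young), 0.032 (OldAcetate minus Old) and 0.11 (OldAcetate minus Young).

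Same-numbered libraries were not treated as pairs in the main fit. Differences between replicates correlated across regions at 0.0093, -0.03 and -0.04 between groups. These differences were little above counting noise (chi-square per degree of freedom 1.10 to 1.18), so the correlations cannot decide whether the libraries were paired. With the replicate block limma called 2, 0 and 0 regions and no member, and it changed no call.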
